A study of Rattus norvegicus with 16 samples.

Results

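Gene expression in cultured rat cells, labelled levator ani satellite cells (LASCs), was compared between 48 h and 4 h in vehicle. Satellite cells are the resident stem cells of skeletal muscle, and the levator ani is a perineal muscle known for its dependence on androgens. The comparison took the 4 arrays of the vehicle 4 h group and replicates 2 to 4 of the vehicle 48 h group, 7 of the 16 arrays in the series. Vehicle 48 h replicate 1 was left out by the authors and is given below only as a separate value. Probe sets other than Affymetrix controls were kept where the mean MAS5 signal over these 7 arrays was at least 300, which left 20821 of 31042 probe sets and 11239 genes. Both groups were at passage 5, received 0.2% DMSO and were held in medium with charcoal-stripped serum, and differed in the labels only by time. The second pair of groups received 10 nM NARA, the nonsteroidal androgen receptor agonist of the study, for 4 h (2 arrays kept) or 48 h (4 arrays), in the same kind of medium. The titles call the replicates biological, but the sources used here give no strain, sex, age or number of donor animals and do not say whether replicates came from separate cultures. Every p-value therefore rests on the variation among these arrays, which may in part be technical.

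A dividing cell makes its DNA replication proteins as it passes from G1 into S phase, largely under E2F factors, and its mitotic proteins later, in G2. Many promoters of mitotic genes carry CCAAT boxes, which bind NF-Y. Many also carry a cell cycle homology region, often spelled TTTGAA, through which the DREAM complex keeps these genes low outside the cycle. In cultured muscle stem cells division and differentiation are alternatives, and withdrawal of mitogens favours the latter. Charcoal treatment strips serum of steroids and other lipophilic molecules, and every array measured here came from cells in stripped serum.

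The 7 vehicle arrays correlated with one another at r between 0.937 and 0.956 over probe sets, which are not independent replicates, and pairs from different times (0.937 to 0.956) spanned the pairs within 4 h (0.939 to 0.950) and within 48 h (0.940 to 0.951). Their median signals lay between 539 and 613. The 3'/5' signal ratio of the beta-actin control, a measure of how complete the RNA or its labelled copy is, was 2.52 to 2.81 at 4 h and 3.02 to 3.34 at 48 h, with no overlap. In NARA it was 2.42 to 2.66 at 4 h and 2.97 to 3.38 at 48 h, while the Gapdh ratio overlapped between the vehicle times, at 1.11 to 1.17 and 1.13 to 1.36, and was highest in replicate 2 of both 48 h groups (1.36 in vehicle and 1.30 in NARA). The part of this ratio in any difference between the times was not tested. Since these are bulk samples, fewer cells of a type and less RNA per cell cannot be told apart.

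Between 4 h and 48 h in vehicle no single gene passed the test across all genes, but the genes of cell division lay lower at 48 h as a group. Of 43 measured genes of mitosis and G2/M, 41 had a negative log2 difference (48 h minus 4 h), and the median was -0.53, against 0.0020 over all genes tested. Genes of DNA replication followed with a median of -0.27. Both lists were chosen with earlier results of these data known, so they are described with no test. Follistatin (Fst), Serpinb2, Il1rl1 and Igf2 were among the genes with lower signals at 48 h, and Igfbp5 and Tk2 among those with higher signals. With limma, 0 of 20821 probe sets passed an adjusted p of 0.05, and the smallest adjusted p was 0.431. An unadjusted p under 0.05 was found for 1529 probe sets, or 7.34%, of which 721 (3.46%) were higher and 808 (3.88%) lower at 48 h.

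The differences were small beside their error. The median size of the log2 difference was 0.153 and the 90th percentile 0.461, and the median SE was 0.187. At least a 2-fold difference was seen for 187 probe sets, and in 94 of these all late arrays lay on one side of all early ones. Counting 1 probe set a gene, the brightest, 498 genes (4.43%) were higher at 48 h on all 3 arrays than on every 4 h array, and 591 (5.26%) were lower. With a difference of at least 2-fold as well, these were 9 genes (0.0801%) and 34 genes (0.303%). An exact rank-sum test of a single value between 4 and 3 arrays has 35 splits and cannot give a two-sided p below 0.0571.

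Mitosis genes were lower at 48 h in nearly every member. Of 52 genes in the list, 44 had a probe set and 43 lay above the minimum signal. For 17 of the 43 the late arrays all lay below the early ones, where 5.26% of all genes did so, and 29 had an unadjusted p under 0.05 in the lower direction, where 492 of all genes (4.38%) did so, beside 400 (3.56%) in the higher. The count of 17 was 27 without vehicle 4 h replicate 4 and also without vehicle 48 h replicate 3, where 9.08% and 9.38% of all genes were lower without overlap. None passed limma's adjusted threshold. The 2 members with a positive difference, named after their values were seen, were Cdca8, a subunit of the chromosomal passenger complex, at 0.76 (SE 0.642), and Dlgap5, a microtubule binding protein of the spindle, at 0.21 (SE 0.195).

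The promoters of 4 of the mitosis genes with the smallest p are shown because their members lay lower together and because such promoters are where the known cell cycle elements sit. Each is the 250 bases before the annotated start from RefSeq on build GRCr8, 5' to 3' on the gene's strand, with CCAAT or TTTGAA in capitals, or their reverse complements ATTGG and TTCAAA. Mad2l1 lies at chr4:97236259-97236508 on the + strand, Ccnb1 at chr2:33655226-33655475 on the - strand, Cks2 at chr17:13727520-13727769 on the - strand and Ect2 at chr2:111966627-111966876 on the - strand.
Mad2l1: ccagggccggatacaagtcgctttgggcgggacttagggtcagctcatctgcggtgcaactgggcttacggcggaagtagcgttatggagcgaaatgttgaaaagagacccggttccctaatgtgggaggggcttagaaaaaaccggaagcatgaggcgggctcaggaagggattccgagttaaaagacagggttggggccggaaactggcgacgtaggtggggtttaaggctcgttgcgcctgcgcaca
Ccnb1: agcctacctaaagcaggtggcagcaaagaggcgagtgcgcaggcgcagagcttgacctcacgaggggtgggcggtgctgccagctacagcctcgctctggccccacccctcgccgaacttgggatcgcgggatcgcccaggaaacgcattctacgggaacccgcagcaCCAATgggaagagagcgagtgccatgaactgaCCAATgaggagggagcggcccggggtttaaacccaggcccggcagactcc
Cks2: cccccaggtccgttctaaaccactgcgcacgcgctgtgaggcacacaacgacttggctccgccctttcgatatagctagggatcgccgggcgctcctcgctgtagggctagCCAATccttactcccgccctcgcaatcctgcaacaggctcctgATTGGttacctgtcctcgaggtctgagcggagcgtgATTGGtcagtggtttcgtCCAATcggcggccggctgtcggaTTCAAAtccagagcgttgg
Ect2: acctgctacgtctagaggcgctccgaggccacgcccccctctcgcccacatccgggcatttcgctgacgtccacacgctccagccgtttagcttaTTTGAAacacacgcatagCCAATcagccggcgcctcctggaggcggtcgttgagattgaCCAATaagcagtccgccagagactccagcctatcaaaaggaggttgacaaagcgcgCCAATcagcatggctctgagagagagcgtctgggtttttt
In the Ccnb1 window CCAAT began 82 and 50 bases before the start. Cks2 had 4 such matches, at 139, 96, 60 and 42 bases, and a TTTGAA at 19 bases. Ect2 had 3, at 137, 96 and 40 bases, with TTTGAA at 155 bases. The Mad2l1 window held neither string. Kif20a, whose p lay between those of Ccnb1 and Cks2, is not printed. Its window held 3 matches of CCAAT and 0 of TTTGAA.

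The same search covered the whole list, on both strands. A promoter was given for 36 of the 43 measured mitosis genes, and 28 of these (77.8%) held CCAAT, 18 held at least 2 copies and 17 (47.2%) held TTTGAA. All 17 with TTTGAA also held CCAAT. Over the 9359 genes tested that had a promoter, CCAAT was found in 35.6%, at least 2 copies in 12.3%, TTTGAA in 10.2% and both in 3.84%. Of 27457 RefSeq promoters in all, 34.3% held CCAAT, 16.03% TTTGAA and 5.76% both. Of 33 DNA replication genes with a promoter, 16 (48.5%) held CCAAT, 2 (6.06%) held TTTGAA and 0 held both. The mitosis members with a positive difference held matches too. Cdca8 had 4 of CCAAT and 1 of TTTGAA, and Dlgap5 had 1 of CCAAT. These are matches of letters in a window, and binding was not measured. They do not depend on the arrays, and their relation to the difference between the times was not tested.

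Among the 17 genes without overlap were Ccnb1, Ccna2 and Cks2, which act with cyclin-dependent kinases. Ccnb1, the cyclin that activates Cdk1 at mitotic entry, had signals of 2549.7, 2173, 3201 and 1909.7 at 4 h and 1159, 1227 and 1285 at 48 h. All 3 late arrays lay below the lowest early array, and they varied less among themselves, with a mean of 1224 ± 62.9 (SD, n = 3) against an early mean of 2458 ± 560.3 (SD, n = 4). The log2 difference was -0.95 (SE 0.184, limma adjusted p = 0.431), and vehicle 48 h replicate 1 lay at 1538, also below every 4 h array. Ccna2, the cyclin of S phase and G2, had signals of 2026, 1288, 2451 and 1270.2 at 4 h and 618, 898 and 1006 at 48 h, with a log2 difference of -0.99 (SE 0.252, limma adjusted p = 0.454). Cks2, a small subunit that binds cyclin-dependent kinases, had 5156, 4140.3, 6130.2 and 3464 at 4 h and 2532, 2869 and 2589.5 at 48 h. Its groups did not overlap and its log2 difference was -0.78 (SE 0.219).

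Mad2l1, Pbk and Ect2 were also among the 17. Mad2l1, which holds back anaphase until chromosomes are attached, had signals of 1926, 1571, 1906 and 1263 at 4 h and 857, 857 and 880.4 at 48 h. The 48 h arrays lay close together, at a mean of 865 ± 13.7 (SD, n = 3), while the 4 h arrays spread more widely around 1666 ± 315 (SD, n = 4). The log2 difference was -0.89 (SE 0.168, limma adjusted p = 0.431). Other probe sets of Mad2l1 lay at only -0.36 and -0.34. Pbk, a mitotic kinase, had signals of 2162, 1501, 2933 and 1469 at 4 h and 639, 1162 and 894 at 48 h, and a log2 difference of -1.10 (SE 0.269), the lowest of the list. Ect2, the exchange factor that activates RhoA for cytokinesis, had 2879.9, 2024, 3799 and 2001 at 4 h and 1616, 1465 and 1232 at 48 h, with a log2 difference of -0.83 (SE 0.238). In each of these genes vehicle 4 h replicate 4 was the lowest early array, and in Pbk and Ect2 replicate 3 was the highest. Other kinase genes of the checkpoint and of mitosis, named after their values were seen, had negative differences with overlapping arrays, at -0.87 for Ttk, -0.77 for Bub1b, -0.33 for Bub1, -0.87 for Aurka, -0.59 for Aurkb and -0.50 for Plk1.

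Mki67, the proliferation marker Ki-67, had signals of 2494, 1961, 3431 and 2340.5 at 4 h and 1529, 1878 and 1950.2 at 48 h. Its groups did not overlap, but replicate 2 at 4 h (1961) and replicate 4 at 48 h (1950.2) lay next to each other, and the log2 difference was -0.48 (SE 0.195, limma adjusted p = 0.654). The plot of all measured mitosis genes shows the other members, all but Cdca8 and Dlgap5 below 0.

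**Figure D1:**
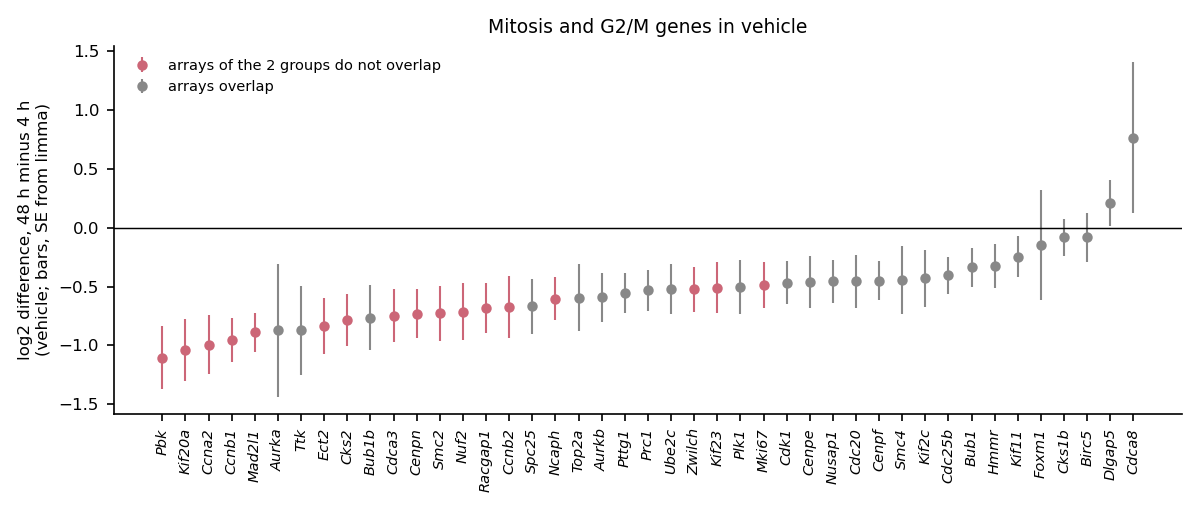
Log2 difference of signal (48 h minus 4 h, vehicle, on log2(signal + 50)) for each of the 43 measured mitosis and G2/M genes, ordered by value, with limma's SE as bars. Points in red are the 17 genes whose 3 late arrays all lay below the 4 early arrays; 41 of 43 points lie below 0, and Cdca8, at the right, has the widest bar.

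A value per array was formed as the median over the list's genes of log2(signal + 50) minus each gene's mean over the 7 vehicle arrays. For mitosis genes it was 0.32, 0.088, 0.65 and -0.052 in vehicle 4 h replicates 1 to 4 and -0.40, -0.23 and -0.33 in vehicle 48 h replicates 2 to 4. The late arrays all lay below the early ones, while the early arrays themselves spanned more than the gap between the groups, from -0.052 in replicate 4 to 0.65 in replicate 3. Vehicle 48 h replicate 1 lay at -0.32, among the other late arrays. With this array added, 41 members again had a negative difference and 17 again did not overlap, where 3.54% of all genes were lower without overlap. Leaving out each of the 7 arrays in turn gave 39 to 41 negative members, and the fitted median ranged from -0.66 to -0.44.

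DNA replication genes lay lower at 48 h by a smaller amount. Of 37 measured members, 34 had a negative log2 difference, 11 were lower with no overlap between the arrays and 13 had an unadjusted p under 0.05, against 5.26% and 4.38% of all genes for the latter counts. None passed limma's adjusted threshold. The values per array were 0.15, 0.092, 0.29 and 0.0053 at 4 h and -0.23, -0.18 and -0.10 at 48 h, again without overlap, and vehicle 48 h replicate 1 lay at -0.25. With that array added, 10 members did not overlap, and leaving out single arrays gave 32 to 36 negative members.

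Among these genes, Gins1, a subunit of the replicative helicase complex, had signals of 582, 682, 1054 and 661 at 4 h and 294, 347 and 424 at 48 h. All late arrays lay below all early ones, and the log2 difference was -0.95 (SE 0.205, limma adjusted p = 0.431). Cdt1, which licenses replication origins, had 681, 680.0, 934 and 705 at 4 h and 426, 483 and 492.8 at 48 h, with a log2 difference of -0.62 (SE 0.150). Pcna, the sliding clamp of DNA polymerase, had 12955, 12454, 14967 and 11416 at 4 h and 9549.7, 9442 and 9165 at 48 h. Its late arrays lay close together and below the early ones, by a log2 difference of -0.46 (SE 0.111, limma adjusted p = 0.454). Tk1, the thymidine kinase of S phase, differed by -0.72 (SE 0.192) without overlap. Nasp, a histone chaperone outside this list that carries new histones during replication, had 2626, 2358, 2539 and 2087 at 4 h and 1210.2, 1625 and 1488 at 48 h. Its log2 difference was -0.72 (SE 0.141, limma adjusted p = 0.431), while a dimmer probe set lay at -0.14.

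**Figure D2:**
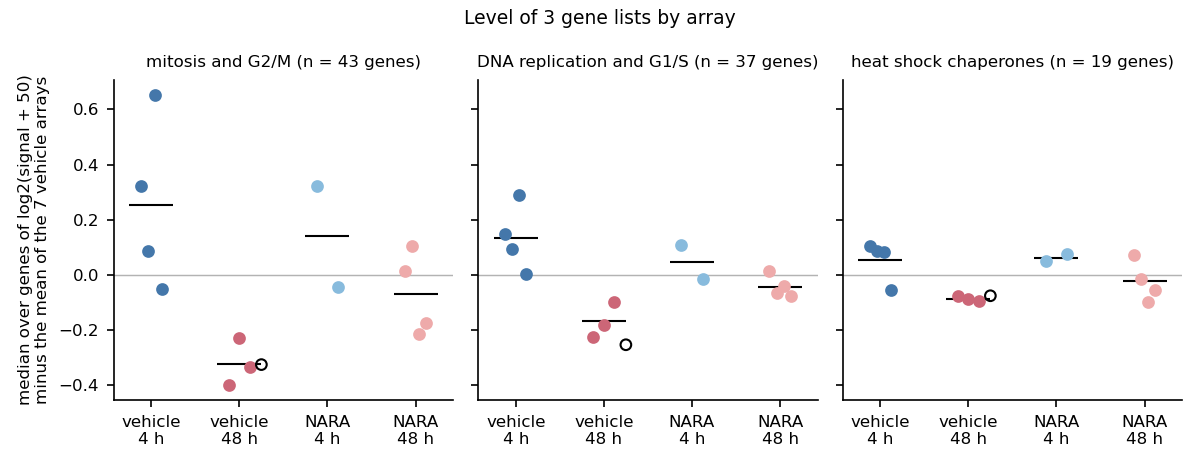
Median over a list's measured genes of log2(signal + 50) minus the gene's mean over the 7 vehicle arrays, for each array; points are arrays, lines are group means and the open circle is vehicle 48 h replicate 1, which the authors left out. In the mitosis, DNA replication and heat shock lists the late vehicle arrays lie below the early ones, and the NARA arrays overlap between the times in all 3 lists.

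As a list, the genes that brake or start the cycle in G1 showed no such shift. Of 20 measured D cyclins, CDK inhibitors and p53 targets, 9 had a negative and 11 a positive log2 difference, with a median of 0.0039. Ccnd1, cyclin D1, had signals of 4317, 4200.2, 4776 and 3909 at 4 h and 4621, 3636 and 3200.2 at 48 h, and Cdkn1a, the p21 inhibitor, had 4005, 3619.6, 3627 and 3219 at 4 h and 4583, 3296 and 3481 at 48 h. For Ccnd1 1 late array lay within the early range and 2 below it, and for Cdkn1a 1 lay above it and 2 within, with log2 differences of -0.18 (SE 0.136) and 0.054 (SE 0.157). A dimmer probe set of Cdkn1a lay at -0.67, and those of Ccnd1 lay at -0.60 and -0.25. Cdkn1c, the p57 inhibitor linked to muscle differentiation, had 515, 982, 972 and 759 at 4 h and 444, 514 and 619 at 48 h, overlapping by 1 array at 4 h. Gadd45b, a stress-induced growth arrest gene, had 1862, 1240.1, 1435 and 1537 at 4 h and 1117, 939 and 1099 at 48 h, lower at 48 h without overlap and with a log2 difference of -0.50 (SE 0.130, limma adjusted p = 0.469).

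Among genes with non-overlapping arrays, the 10 of smallest p in each direction were of mixed function. Those with lower signals at 48 h were Or10g1b, C9h6orf141, Mad2l1, Ccnb1, Ggnbp1, Nasp, Serpinb2, Il1rl1, Acss2 and Pwwp3b, with log2 differences from -1.55 to -0.55 and an adjusted p of 0.431 in limma for each. Serpinb2, the plasminogen activator inhibitor PAI-2, had signals of 11461, 9258, 16353 and 9553 at 4 h and 5531, 6474 and 5521 at 48 h. The late arrays and vehicle 48 h replicate 1 were alike and below all early arrays, with the latter at 5726, and the log2 difference was -0.96 (SE 0.187). Il1rl1, the receptor of interleukin 33, had 7627, 6669, 9622 and 6016 at 4 h and 4429, 4003 and 4209.6 at 48 h, with a log2 difference of -0.80 (SE 0.158) and the lowest early array again in replicate 4. Ggnbp1 had 921, 917, 968 and 1004 at 4 h and 732, 398 and 486 at 48 h, while vehicle 48 h replicate 1 stood at 1000.1, within the range of the early arrays. Without vehicle 48 h replicate 2, Ggnbp1 passed limma's threshold with adjusted p = 0.0244, as did Adck2, a mitochondrial kinase of the ubiquinone pathway, with adjusted p = 0.00161. The signal of Adck2, named after its values were seen, was 2141 in that replicate and 213 and 192 in the other late arrays.

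On the higher side the 10 genes were Tk2, Sall1, Igfbp5, Ralgdsl2, Cmbl, Evc, Aup1, Pex6, Olfml2a and C3h9orf78. Tk2, the mitochondrial thymidine kinase, had signals of 918, 948, 1037 and 1065 at 4 h and 1508, 1479 and 1512 at 48 h, with vehicle 48 h replicate 1 higher still at 1878. The late arrays lay close together and above every early one, and the log2 difference was 0.58 (SE 0.110, limma adjusted p = 0.431), opposite in sign to that of the S phase enzyme Tk1. Sall1, a zinc finger transcription factor, had 1105, 1134, 937 and 1397 at 4 h and 1923, 1638 and 1969 at 48 h, a log2 difference of 0.68 (SE 0.141). Evc, a component of the primary cilium that takes part in Hedgehog signalling, had 831, 917, 623 and 923 at 4 h and 1872, 1342 and 1254 at 48 h, a log2 difference of 0.81 (SE 0.180). Vehicle 48 h replicate 1 fell within or below the early range for Ralgdsl2, at 1423 against 1312 to 1578, for Aup1, at 1217 against 1318 to 1470.2, and for Pex6, a peroxisome assembly gene, at 93.0 against 96.2 to 243.

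Among genes without overlap, the largest fitted differences were -1.92 on the lower side and 1.59, that of Pex6, on the higher. Bdh1, a ketone body enzyme, had signals of 609.6, 952, 1152 and 627 at 4 h and 53.3, 283 and 284 at 48 h, a log2 difference of -1.92 (SE 0.628, limma adjusted p = 0.570). Lrp2, Sdsl, Atp9a and Umod differed by -1.75, -1.73, -1.65 and -1.61, with SE of 0.484 to 0.512, and vehicle 48 h replicate 1 lay within or above the early arrays for Lrp2 (1000.1) and Sdsl (704). For Sdsl, vehicle 4 h replicate 4 (139.8) and vehicle 48 h replicate 4 (138.2) nearly met. A second probe set of Sdsl lay at -0.26. Col6a5, a collagen VI chain, had 343, 81.7, 147 and 122 at 4 h and 389, 387 and 928 at 48 h, a log2 difference of 1.48 (SE 0.497). The receptor gene Crlf2, the matrix protease gene Mmp11 and the synaptotagmin gene Syt5 differed by 1.21, 1.20 and 1.18. For Crlf2 and for Syt5, 1 of the 4 early arrays lay far from the rest. The largest positive difference over all genes, 1.62, was that of Slc13a2, a dicarboxylate transporter named after its values were seen, whose arrays overlapped, with 133 to 151 at 4 h and 943, 1044 and 151 at 48 h.

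**Figure D3:**
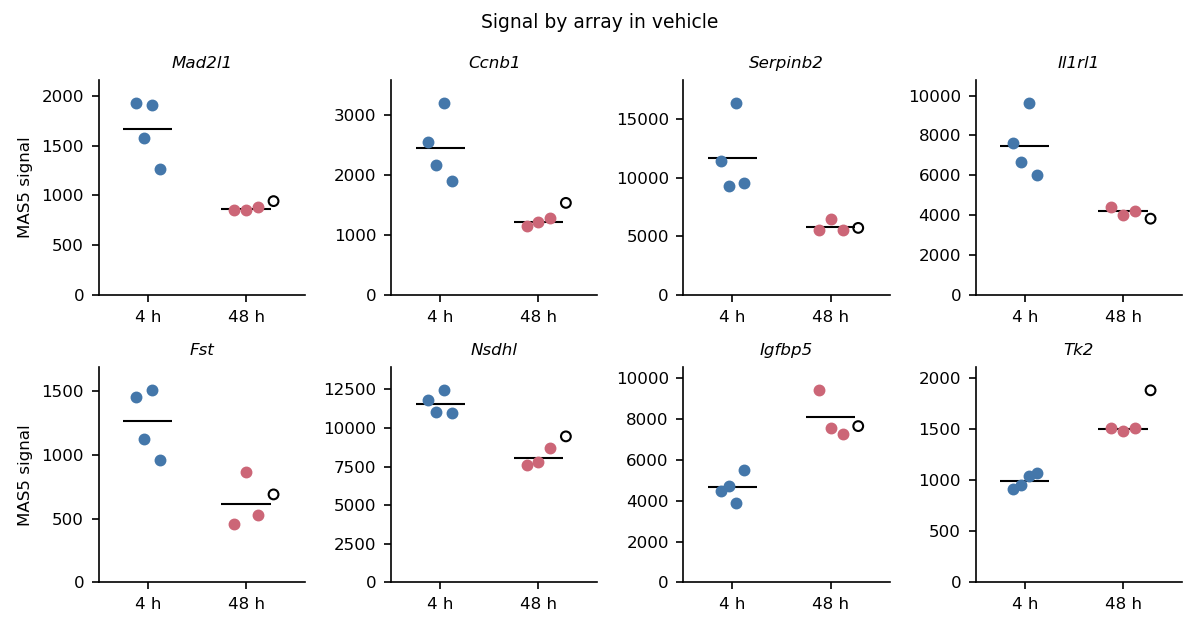
MAS5 signal on a linear axis from 0 for 8 genes in the vehicle arrays; points are arrays, lines are group means and the open circle is vehicle 48 h replicate 1. In each panel the filled late points lie on one side of all early points, lower for Mad2l1, Ccnb1, Serpinb2, Il1rl1, Fst and Nsdhl and higher for Igfbp5 and Tk2.

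Growth factor genes differed as single members around a median near 0. Of 30 measured genes of the IGF, FGF and PDGF axis, 12 had a negative and 18 a positive log2 difference, with a median of 0.047. Igf2, a fetal growth factor that muscle cells make during differentiation, had signals of 979, 1006, 1029 and 867 at 4 h and 371, 743 and 469.7 at 48 h. The 4 h arrays lay close together and above every late array, and the log2 difference was -0.87 (SE 0.210, limma adjusted p = 0.454). Igfbp5, a secreted binding protein of both IGFs, had 4482, 4717, 3905 and 5491 at 4 h and 9409.5, 7554 and 7286 at 48 h. All late arrays were higher, by a log2 difference of 0.79 (SE 0.169, limma adjusted p = 0.431), and the gene's 3 other probe sets lay at 0.79, 0.63 and 1.19. Igf1, which acts through the same receptor as Igf2, had 29677, 27965, 27165 and 26359.7 at 4 h and 25124, 32445 and 31938 at 48 h. Its late arrays lay on both sides of the early ones, with a log2 difference of 0.094 (SE 0.118). Dimmer probe sets of Igf1 lay at 0.67 and 0.40, so its probe sets differed in size.

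Of 23 measured genes of the BMP, activin and myostatin axis, 4 were lower and 2 higher at 48 h without overlap, beside 5.26% and 4.43% of all genes, and the median was -0.043. Fst, which binds and blocks activin and myostatin, had signals of 1454, 1126, 1504 and 958 at 4 h and 458, 865 and 525 at 48 h. The groups were separated by less than the spread within either, since vehicle 48 h replicate 3 (865) came near vehicle 4 h replicate 4 (958), and the log2 difference was -1.002 (SE 0.214, limma adjusted p = 0.431). A second probe set of Fst lay at -0.43. Grem1, an extracellular antagonist of BMPs, had 38909, 41886, 37258 and 38169 at 4 h and 28499, 33085 and 27909 at 48 h, a log2 difference of -0.39 (SE 0.112, limma adjusted p = 0.521). Smad9, a transducer of BMP signals, had 481, 431, 409.5 and 401 at 4 h and 87.8, 261 and 369.6 at 48 h, and Id2, an inhibitor of myogenic factors that BMPs induce, had 2542, 1963, 2225 and 1661 at 4 h and 1283, 1339 and 1708 at 48 h with overlapping groups. A second probe set of Id2 lay at 0.0027.

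TGF-beta genes were mostly of positive sign. Of 20 measured members 14 had a positive log2 difference, 4 were higher without overlap and 0 lower, beside 4.43% and 5.26% of all genes, and the median was 0.093. Tgfb3, one of the ligands, had signals of 3759.8, 4375, 3422 and 4062 at 4 h and 5728, 5244 and 4748 at 48 h, and Smad3, a transducer of the pathway, had 3295, 2974, 3339 and 3610.3 at 4 h and 4501, 4585 and 3682 at 48 h. The log2 differences were 0.42 (SE 0.130) and 0.36 (SE 0.128), neither past limma's threshold. Vehicle 48 h replicate 1 lay at 3986 and 2792, within or below the early arrays of each gene.

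Of 32 Wnt and Notch genes, 4 were higher without overlap and 0 lower, beside 4.43% and 5.26% of all genes, around a median of 0.047. Dkk3, a secreted protein of the Dickkopf family, had 11316, 11351, 9667 and 11949 at 4 h and 14378, 13979 and 13697 at 48 h, a log2 difference of 0.34 (SE 0.116), while a dimmer probe set lay at -0.66. Ccn5, a matricellular protein that Wnt signals can induce, differed by 0.28 (SE 0.126) and the Wnt modulator Sfrp4 by 0.35 (SE 0.175), both without overlap. None of these passed limma's threshold.

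Collagens and their processing enzymes were near their early levels in vehicle. The median log2 difference was 0.034 over 21 collagens and 0.092 over 19 processing genes. Col4a2, a chain of basement membrane collagen, had 3189.7, 2782, 3194 and 2956 at 4 h and 4330.4, 4081 and 3530.4 at 48 h, a log2 difference of 0.39 (SE 0.112) with no overlap. Of 36 matrix glycoproteins and proteoglycans 23 had a positive difference, with a median of 0.10. The large proteoglycan Vcan and the secreted phosphoprotein Spp1 were exceptions, at -0.44 (SE 0.128) and -0.42 (SE 0.134) without overlap, although the other probe sets of Vcan lay from -0.35 to 0.25.

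Of 23 matrix proteases and inhibitors, 15 had a positive difference, with a median of 0.11. Mmp3, stromelysin 1, had 3945, 4035, 4389 and 4009 at 4 h and 3067, 3439 and 3209 at 48 h, lower on all late arrays by a log2 difference of -0.33 (SE 0.0913, limma adjusted p = 0.493). Serpine2, an inhibitor of thrombin and plasminogen activators, was also lower without overlap, at -0.27 (SE 0.101). Mmp14, the membrane-bound activator of progelatinase A, had 36450.2, 32369, 28241 and 33854 at 4 h and 44681, 37772 and 34738 at 48 h, which overlapped by 1 pair of arrays.

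Contractile genes of smooth muscle and myofibroblasts had lower signals at 48 h in 13 of 18 measured members, 3 of them without overlap (beside 5.26% of all genes), with a median of -0.17. Myl9, a regulatory light chain of myosin, had signals of 3613, 3549, 3805 and 3037 at 4 h and 2075, 2608 and 1969 at 48 h. The late arrays all lay below the early ones, by a log2 difference of -0.65 (SE 0.138, limma adjusted p = 0.431). Cnn1, calponin, had 733, 582, 913 and 478 at 4 h and 288, 353 and 81.4 at 48 h, a log2 difference of -1.44 (SE 0.375), and vehicle 48 h replicate 1, at 519, lay within the early range. Tagln, transgelin, had 16611, 13876, 14703 and 9238 at 4 h and 8496, 10148 and 6997 at 48 h, with overlapping arrays.

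Genes under the control of actin and tension held members of both signs. Of 27 targets of YAP and SRF, which respond to cell tension and actin assembly, 20 had a negative and 7 a positive difference, with a median of -0.048, and some of them were also in the contractile list. Zyx, zyxin of focal adhesions, had 5781, 5680.0, 5783 and 5062 at 4 h and 8571, 7059 and 6286 at 48 h, higher on all late arrays by a log2 difference of 0.38 (SE 0.117, limma adjusted p = 0.558).

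Lipid synthesis genes had lower signals at 48 h in most members. Of 20 measured genes of cholesterol synthesis and uptake, 15 had a negative log2 difference and 3 were lower without overlap (beside 5.26% of all genes), with a median of -0.17. Nsdhl, a sterol dehydrogenase, had signals of 11837, 11049, 12434 and 10959 at 4 h and 7609, 7807 and 8668 at 48 h. Its late arrays lay below all early ones, by a log2 difference of -0.52 (SE 0.107, limma adjusted p = 0.431), but a dimmer probe set of the gene lay at 0.063. Acat2, which makes the acetoacetyl-CoA that feeds the pathway, had 12141, 11433, 13426 and 12115 at 4 h and 9668, 10305 and 8010.2 at 48 h, and Ebp, a sterol isomerase, differed by -0.33 (SE 0.113) without overlap. Acss2, the cytosolic acetyl-CoA synthetase, which supplies carbon for lipid synthesis, had 12758, 11350.0, 11529.7 and 10297 at 4 h and 7373, 8723 and 7368 at 48 h, a log2 difference of -0.55 (SE 0.109).

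Of 23 genes of fatty acid synthesis and storage, 15 had a negative difference and 5 were lower without overlap (beside 5.26% of all genes), with a median of -0.082. Fabp5, a carrier of fatty acids, had 10602, 8352, 11752 and 8108 at 4 h and 6066, 6722 and 5213 at 48 h, a log2 difference of -0.68 (SE 0.161, limma adjusted p = 0.454). Acsl1, which activates long-chain fatty acids, had 5457, 4888, 6364 and 5863 at 4 h and 3365, 4869 and 4063 at 48 h, where vehicle 48 h replicate 3 (4869) and vehicle 4 h replicate 2 (4888) nearly met. The log2 difference of Acsl1 was -0.47, and a dimmer probe set lay at -0.13. Scd, the desaturase that makes oleate, overlapped, with a log2 difference of -0.37 (SE 0.202).

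Energy metabolism differed in single genes. Glycolysis and hypoxia genes had a median of 0.0031 over 31 members. Slc16a3, the lactate exporter, had 1512, 1272, 1181 and 1101 at 4 h and 674, 941 and 715 at 48 h, a log2 difference of -0.68 (SE 0.189), and Ldha, lactate dehydrogenase A, had 51305, 49759.7, 54549 and 46387 at 4 h and 42124, 40939 and 40542 at 48 h, a log2 difference of -0.29 (SE 0.0940). Both were lower without overlap, although vehicle 48 h replicate 1 lay at 1246 for Slc16a3, within the early arrays. Aldoc, an aldolase, was higher without overlap, at 0.32 (SE 0.112). Oxidative phosphorylation genes had a median of -0.030 over 38 members, and ribosome biogenesis genes, which usually follow growth, one of -0.041 over 29.

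Chaperones lay slightly lower. Of 19 heat shock chaperones 13 had a negative difference and 3 were lower without overlap (beside 5.26% of all genes), with a median of -0.13. Values per array were 0.10, 0.088, 0.084 and -0.055 at 4 h and -0.078, -0.088 and -0.095 at 48 h, so that vehicle 4 h replicate 4 nearly met the late arrays. Without that array 8 of the 19 were lower without overlap, beside 9.08% of all genes. Without vehicle 48 h replicate 3 the count was 5 (9.38% of all genes), and without replicate 4 it was 6 (11.0%). Cacybp, a partner of heat shock protein 90 and S100 proteins, had 23059, 23369, 21297 and 21267 at 4 h and 16957, 16756 and 18771 at 48 h, a log2 difference of -0.35 (SE 0.123).

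In the unfolded protein and amino acid response 23 of 38 measured genes had a negative difference, with a median of -0.075. Hspa5, BiP, the main chaperone of the endoplasmic reticulum, had 40053, 41172, 42609 and 34944 at 4 h and 27852, 31494 and 29242 at 48 h, lower on all late arrays by a log2 difference of -0.42 (SE 0.109, limma adjusted p = 0.462). Herpud1, which helps remove misfolded proteins there, also lay lower without overlap, at -0.22 (SE 0.0936). Atf5, a transcription factor of the mitochondrial stress response, had 12296, 13064, 12069 and 14259 at 4 h and 23485, 19167 and 13535 at 48 h, with vehicle 48 h replicate 4 inside the early range and a log2 difference of 0.50 (SE 0.169).

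Signalling genes of rapid response were largely level. Immediate early genes had a median of 0.047 over 26 members, with Egr1, a zinc finger factor induced by serum, higher on all late arrays at 12740.4, 13498, 10454 and 15042 at 4 h and 18009, 19617 and 19196 at 48 h. Its log2 difference was 0.56 (SE 0.150, limma adjusted p = 0.478). Fos, the other classical member, differed by -0.66 (SE 0.521) at its brightest probe set and by 0.80 at another. Dusp1, a phosphatase of MAP kinases, had 7201, 8092, 7841 and 8678 at 4 h and 10169.6, 9481 and 9320.2 at 48 h, a log2 difference of 0.28 (SE 0.0999), in a list of 11 ERK feedback inhibitors with a median of -0.0053. A dimmer probe set of Dusp1 lay at 0.0096.

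Cytokine and NF-kB genes had a median of 0.025 over 28 members. Nfkb2, the p100 precursor of the noncanonical pathway, had 809, 555, 524 and 661 at 4 h and 1042, 953 and 1018 at 48 h, a log2 difference of 0.63 (SE 0.182), and Il1rl1, given above, was the lowest of the list. Cxcr4, the receptor of Cxcl12, had 3689, 4583, 2510.1 and 4146 at 4 h and 5117, 4462 and 5191 at 48 h, overlapping, with a log2 difference of 0.43 (SE 0.275). Interferon response genes had a median of 0.022 over 26 members, of which the guanylate binding protein gene Gbp2 was higher without overlap at 0.39 (SE 0.131).

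Prostaglandin genes had a median of 0.052 over 11 members. Ptgs1, the constitutive cyclooxygenase, had 36462, 39646, 37706 and 34232 at 4 h and 27443, 33460.1 and 33208 at 48 h, a log2 difference of -0.24 (SE 0.107) without overlap, and Ptgs2, the inducible one, had 4069.8, 3746, 4313 and 4314 at 4 h and 4758, 4158 and 4837 at 48 h, a log2 difference of 0.15 (SE 0.146). The receptor gene Ptgfr was higher without overlap at 0.60 (SE 0.249).

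Genes that respond to androgens and glucocorticoids, hormones that charcoal removes from serum, had a median of 0.045 over 22 members, 14 of them positive. Fkbp5, a cochaperone of steroid receptors and a common target of both, had 1280.3, 817, 870.1 and 424 at 4 h and 841, 712 and 722 at 48 h. The late arrays lay inside the early range, with a log2 difference of -0.063 (SE 0.276). Clock genes had a median of 0.041 over 16 members, and Dbp and Nr1d1, outputs of the clock that swing widely in synchronised cultures, differed by 0.056 (SE 0.131) and 0.12 (SE 0.176). The mean signal of Per1 was 236, below the minimum. The 25 genes of atrophy, FoxO and autophagy had a median of 0.071, the 13 of polyamine metabolism one of 0.10 and the 21 of oxidative stress one of 0.019.

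The plot of list medians sets these groups side by side. Apart from the mitosis and DNA replication lists, every list's median lay between -0.17 and 0.11. Only the mitosis, DNA replication and heat shock lists had values per array that did not overlap between the times.

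**Figure D4:**
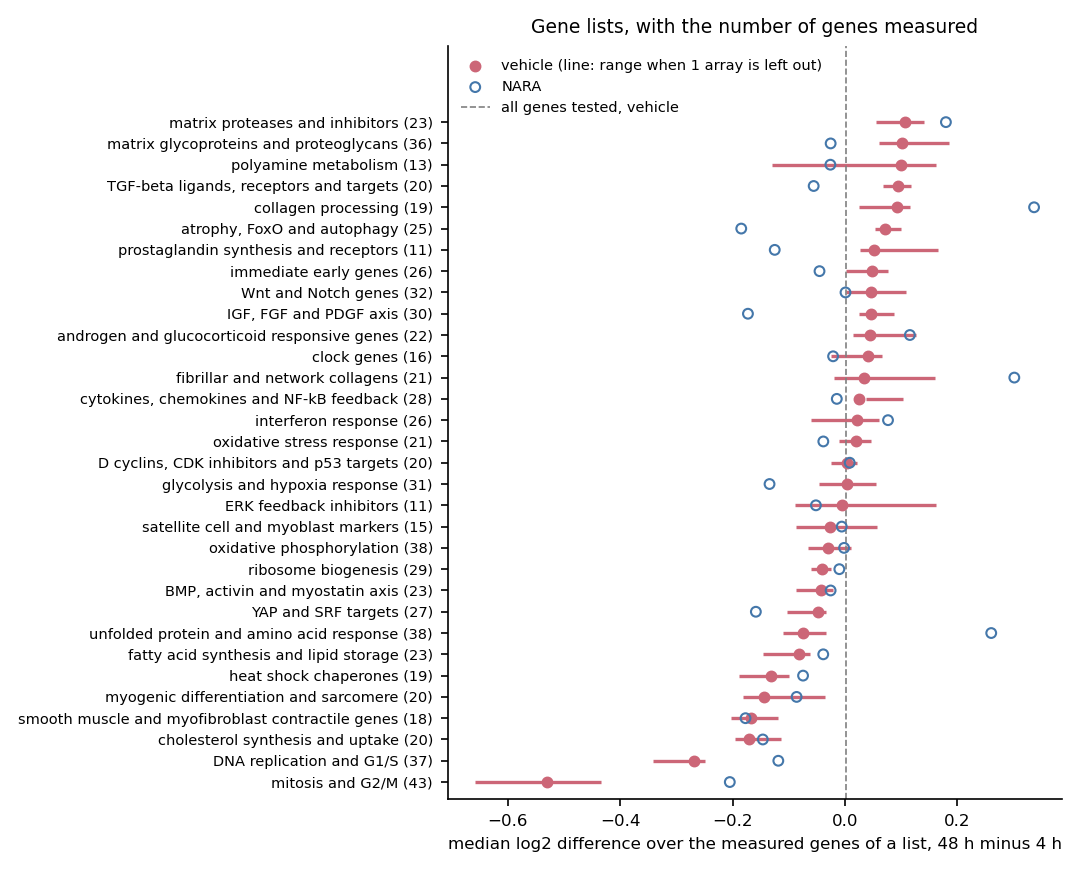
Median log2 difference (48 h minus 4 h) over the measured genes of each of 32 lists, with the number of genes in brackets, in vehicle (filled, with the range when each of the 7 arrays is left out) and in NARA (open); the dashed line is the vehicle median of all genes tested, 0.0020. The mitosis list lies farthest from that line in vehicle, at -0.53, and DNA replication next, at -0.27.

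Muscle identity genes gave little to compare. Satellite cell and myoblast markers had a median of -0.027 over 15 measured members, 10 of them negative. In either direction 0 were without overlap, where 5.26% of all genes were lower and 4.43% higher without overlap. Of 45 genes of differentiation and the sarcomere on the array, 20 lay above the minimum, with a median of -0.14, 13 of them negative. Myog, the factor that starts terminal differentiation, had 889, 959, 1929 and 800.3 at 4 h and 800.3, 1223 and 1021 at 48 h. Replicate 3 at 4 h lay far above the rest, the other arrays overlapped, and the log2 difference was -0.10 (SE 0.330). Des, desmin, had 551, 712, 918 and 877 at 4 h and 984, 738 and 715 at 48 h, with a log2 difference of 0.093 (SE 0.190). Mef2a, a factor that acts with myogenic regulators, was lower without overlap at -0.27 (SE 0.141), while its 3 other probe sets lay at -0.023, -0.21 and 0.031.

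Levels of cell type markers are given beside the labelled cell type, with no test of identity. No probe set was annotated to Pax7, Myf5, Megf10 or Msc, and Myod1 had a mean signal of 62.0. Of the 6 satellite cell markers on the array, 5 lay above the minimum, with summed signals of 3123 to 3712 at 4 h and 2970 to 3313 at 48 h. Of 12 fibroblast and fibro-adipogenic markers, 11 lay above it, with sums of 371842 to 427142 and 362488 to 452123. Pdgfra, a defining receptor of those cells, had 7755, 7827, 6169 and 10431 at 4 h and 9311, 7838 and 10727 at 48 h, overlapping between the times.

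Markers of other cells also overlapped between the times in their sums. For 9 endothelial markers, 5 of them above the minimum, the sums were 2770 to 4265 at 4 h and 2869 to 4614 at 48 h. For 11 leukocyte markers, 7 above it, they were 6164 to 7279 and 6025 to 8153, and the defining marker Ptprc had a mean signal of 81.0. For 8 pericyte and smooth muscle markers, 7 above it, they were 4696 to 5883 and 4375 to 6348. Adipocyte markers (2 of 7 above the minimum), Schwann cell markers (3 of 5), myofibre markers (4 of 9) and hepatocyte markers (6 of 11) also had overlapping sums, and no marker had a mean signal of 0. Of the 78 markers on the array, 3 were lower at 48 h without overlap and 0 higher, beside 5.26% and 4.43% of all genes tested. These were the endothelial gene Cldn5, at 338 to 501 at 4 h and 192 to 279 at 48 h, and, below the minimum, the myosin gene Myh2 (199 to 430 and 30.7 to 71.3) and the apolipoprotein gene Apoa1 (49.4 to 182 and 33.3 to 44.9). The part of these 3 markers in any result was not tested. The shares of all genes tested cover only genes at or above the minimum, which not all of the 78 markers reached. Des is counted in both the satellite cell and the pericyte sets. Cell identity was not tested.

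The same interval in NARA, on 2 arrays at 4 h and 4 at 48 h that the vehicle comparison does not share, gave values for comparison. There 153 probe sets (0.735%) passed limma's threshold, 95 of them (0.456%) higher and 58 (0.279%) lower at 48 h, where in vehicle 0 did so. The count of 153 was 97 without vehicle 48 h replicate 3, 63 when replicate 2 of NARA 4 h was omitted, 78 when replicate 3 or 4 of NARA 48 h was, and 28 with all 16 arrays. The median over the mitosis list was -0.21 in NARA, with 35 of 43 members negative, and its values per array were 0.32 and -0.042 at 4 h and 0.015, 0.11, -0.22 and -0.17 at 48 h, which overlapped. For DNA replication the NARA median was -0.12. The median of the difference between the time effects, vehicle minus NARA, was -0.36 for mitosis genes, and 0 of the 43 passed the test of that difference. Ccnb1 had 2393 and 1753 at 4 h and 2139, 2114, 1707 and 1558 at 48 h in NARA, a log2 difference of -0.13 (SE 0.209) beside -0.95 in vehicle.

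Other lists whose medians stood apart between the treatments included the unfolded protein and amino acid response, at -0.075 in vehicle and 0.26 in NARA. Collagens, at 0.034 and 0.30, and collagen processing, at 0.092 and 0.34, were also higher in NARA. Lower in NARA were atrophy, FoxO and autophagy, at 0.071 and -0.18, and the IGF, FGF and PDGF axis, at 0.047 and -0.17. These differences between lists were not tested. Counted by gene, 61 (0.543%) rose in NARA from 4 h to 48 h, and of these 47 had a positive difference in vehicle (50.4% of all genes did) and 6 did not overlap (4.43% of all), with medians of 1.03 in NARA and 0.10 in vehicle. Another 31 genes (0.276%) fell, of which 19 had a negative difference in vehicle (49.6% of all genes did) and 8 did not overlap (5.26% of all), with medians of -0.88 and -0.088.

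The difference between the time effects was tested directly in limma. It passed for 26 probe sets (0.125%), 14 (0.0672%) with a more positive time effect in vehicle and 12 (0.0576%) with a more negative one, and 1878 probe sets (9.02%) had an unadjusted p under 0.05. The 26 held 17 genes, 7 of the former kind (0.0623% of genes) and 10 of the latter (0.089%). In 2 of the 17, Tk2 and Olfml2a, named after their values were seen, the vehicle arrays lay higher at 48 h without overlap while the NARA difference was negative. Tk2 had 1395 and 1342 at 4 h and 793, 884, 1043 and 1021 at 48 h in NARA, a log2 difference of -0.53 beside 0.58 in vehicle, so that the effects differed by 1.11 (SE 0.167, limma adjusted p = 0.0277). The signals of Tk2 in NARA at 4 h were above every vehicle 4 h array, and those in NARA at 48 h were in the range of vehicle at 4 h or below it.

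Olfml2a, a secreted olfactomedin-like protein, had 2776, 2917, 2385 and 3176 at 4 h and 4519.9, 3918 and 3849.8 at 48 h in vehicle, and 2845 and 2483 at 4 h and 1612, 1564, 1776 and 1899 at 48 h in NARA. Its effects differed by 1.16 (SE 0.187, limma adjusted p = 0.0445). In vehicle a dimmer probe set of Olfml2a lay at 0.12, beside 0.54 at the brightest. For most of the other 15 genes the vehicle times overlapped and the NARA arrays carried the difference; those given here were also chosen after their values were seen. Srpx had vehicle and NARA log2 differences of -0.13 and 1.503, Lum, a collagen-binding proteoglycan, 0.049 and -0.98, and Msra, a methionine sulfoxide reductase, 0.014 and 1.88. The vehicle arrays did not overlap for 4 of the 15, namely Grem1 (-0.39 in vehicle and -1.64 in NARA), Sult1a1 (0.50 and 2.24), Thbd (0.45 and 1.89) and Lrrn3 (-0.37 and 1.36), and only in Lrrn3 did the signs oppose. The count of 26 was 1 without vehicle 48 h replicate 3 or NARA 48 h replicate 4, 5 and 6 without NARA 4 h replicates 3 and 2, 14 without vehicle 4 h replicate 3, 16 without vehicle 48 h replicate 2 and 0 with all 16 arrays.

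**Figure D5:**
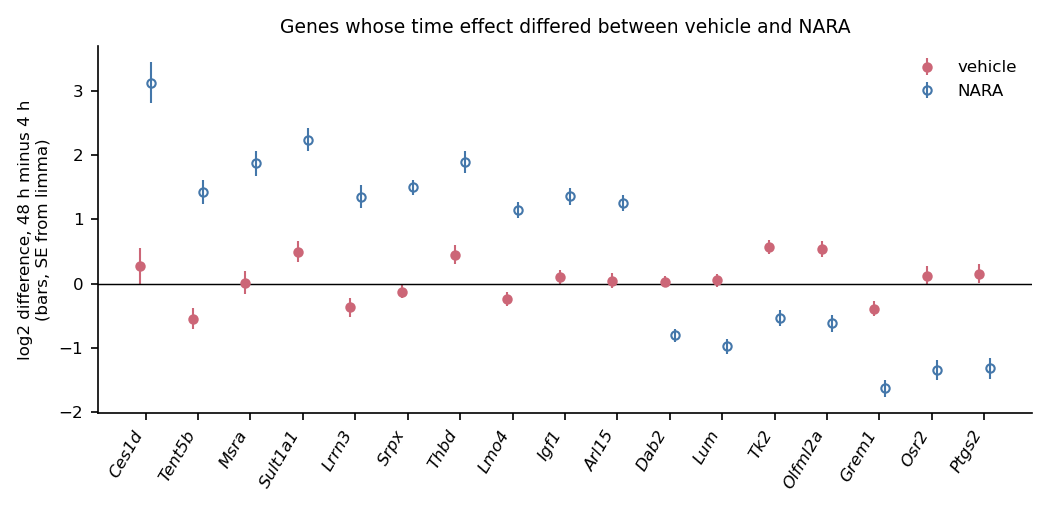
Log2 difference of signal (48 h minus 4 h) with limma's SE in vehicle (filled) and NARA (open) for the 17 genes whose time effect differed between the treatments, ordered by vehicle minus NARA. Vehicle points lie between -0.55 and 0.58. Tk2, Olfml2a, Osr2, Ptgs2, Lum and Dab2 are above 0 in vehicle and below 0 in NARA. Among these, the vehicle arrays did not overlap only for Tk2 and Olfml2a.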

How the data were processed

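Total RNA of each sample was labelled with biotin and hybridised to 1 Affymetrix Rat Genome 230 2.0 array, per the labels' protocols. Each deposited value is a MAS5 signal intensity on a linear scale, which the authors scaled to a trimmed mean of 1500 on every array, per the series' design text; MAS5 is also named in the submitters' processing notes. Extraction is given as Trizol in the labels and as a column kit in the design text, and detection calls were not used. The authors excluded 3 arrays, replicates 1 and 4 of NARA 4 h and replicate 1 of vehicle 48 h. The number of the 13 that remained limits the precision.

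The table held 31099 probe sets, 57 of them controls. Of the other 31042, the platform annotation gave 20826 exactly 1 symbol, 436 several and 9780 none. Of the 20826, 20758 were found in RefSeq by gene identifier and 0 needed an update. The 20821 tested held 15412 with 1 symbol, 344 with several and 5065 with none. The brightest probe set stood for each gene, and 3087 genes had more than 1. Signals were transformed as log2(signal + 50), so that a difference understates that of dim genes.

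Group means of the 4 groups were fitted with limma 3.58.1 (lmFit, eBayes) in R 4.3.3, with 9 residual and 2.4 prior degrees of freedom, and two-sided p-values were adjusted by Benjamini-Hochberg across the 20821 probe sets together, a call being an adjusted p under 0.05. The error given with a log2 difference is limma's SE. The fit was tested on simulated data.

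Genes were named by a rule. Among all genes whose arrays did not overlap, it took the 10 higher and 10 lower of smallest p. Among the same non-overlapping genes it took the 5 of largest difference in each direction. To these were added a fixed set and, from each list, the 4 members or fewer of smallest p. Promoters were printed for mitosis genes among those of smallest p. The members and lists were chosen with earlier results of these data known, and lists are described by counts and medians with no test. Alternatives were other sets of arrays, array weights, offsets, signal minimums, scalings, priors, probe sets, a block on the replicate number, and each vehicle array omitted in turn. Vehicle 48 h replicate 1 added to the counts of lower, non-overlapping list members was tried after seeing the data, as was leaving out each NARA array for the NARA and difference counts, where a lone NARA 4 h array is assumed to vary like the other groups. Promoter sequences are from RefSeq on build GRCr8.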

Additional observations from a re-analysis of the deposited data

Results flagged for a closer look

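Among groups of 4 arrays, 74 values of named genes and lists were looked at for 1 array far from the others (gap over range above Dixon's critical value of 0.829 for 4 samples), and 7 were found. Chance gives about 1 in 20. All were in the vehicle 4 h group. The vehicle 48 h group has only 3 arrays and could not be looked at in this way. Where the outlying arrays lay therefore gives no contrast between the times. Crlf2 stood at 818 in replicate 1, Syt5 at 444 and Pwwp3b at 882 in replicate 2, and Myog at 1929 in replicate 3, each above the other early arrays. The value of the list of D cyclins, CDK inhibitors and p53 targets was 0.085 in replicate 3. In replicate 4 the heat shock list stood at -0.055 and the list of cytokines, chemokines and NF-kB feedback at 0.043.

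The effect of time differed between vehicle and NARA in limma's test of the difference for 26 probe sets. The time effect in vehicle minus that in NARA was 1.11 for Tk2, 1.16 for Olfml2a, 1.25 for Grem1, -1.27 for Igf1 and 1.48 for Ptgs2. The signals behind these values are given above for Tk2 and Olfml2a.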

How the results depend on the processing

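With 3 late arrays, depth of signal matters: differences of dim genes carry large errors, and the vehicle count stayed at 0 in limma under every alternative but 1. Without vehicle 48 h replicate 2 it was 2, and it ranged from 0 to 2 over the arrays left out in turn. The smallest adjusted p over the other alternatives was 0.0683, with only the 7 vehicle arrays in the fit. The mitosis median kept its sign throughout and ranged from -0.66 to -0.44 over arrays left out.

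Counts for the other 2 tests moved more, and the cause was not tested. The NARA count of 153 was 300 where the minimum signal was 1000 and 79 where there was none, 367 with a trended and robust prior, 28 with all 16 arrays, and 63 to 164 over single vehicle or NARA arrays left out. The count of 26 for the difference was 68 at a minimum of 1000 and 11 at none, 43 at an offset of 200, 125 with the trended and robust prior, 0 with all 16 arrays, 54 with 14 arrays (vehicle 48 h replicate 1 restored), and 1 to 36 over single arrays left out.

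Arrays with the same replicate number did not deviate together over the 16 such pairs of the 4 groups (r from -0.037 to 0.038). Pairs with different numbers gave r from -0.047 to 0.053. With 2 to 4 arrays a group, these correlations cannot settle whether the numbers pair samples. With the replicate number as a block the counts were 0 in vehicle, 43 in NARA and 0 for the difference, and the mitosis median was -0.52.

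Of 651 values of the 31 other list medians, 618 moved by less than the spread between arrays. The sign was opposite in 50, over 13 lists, and 7 of these also moved by more than the spread. The prostaglandin median was -0.080 with no minimum and -0.014 with a minimum of 1000. Over arrays left out, the ERK feedback median ranged from -0.088 to 0.16, the latter without vehicle 4 h replicate 2, where the polyamine median was -0.13. The oxidative stress median ranged from -0.0099 (without vehicle 4 h replicate 4) to 0.046, with -0.0053 without vehicle 48 h replicate 2, and the clock median from -0.025 (without the latter) to 0.065.

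Of 1802 values of 90 named genes, 19 turned sign. With vehicle 48 h replicate 1 put back, in 14 or all 16 arrays, Fkbp5 lay at 0.017 and Dbp at -0.018. Fkbp5 lay at 0.078 with the replicate block and ranged from -0.34 to 0.16 over arrays left out, the latter without vehicle 4 h replicate 1, where Des lay at -0.045. Myog ranged from -0.24 to 0.18, the latter without vehicle 4 h replicate 3, Cdkn1a from -0.089 to 0.145 and Dbp from -0.048 to 0.20. Without vehicle 48 h replicate 2, Myog lay at 0.055, Des at -0.045, Cdkn1a at -0.089 and Dbp at -0.048. Other probe sets lay at -0.67 for Cdkn1a, -0.66 for Dkk3, 0.80 for Fos, 0.0027 for Id2, 0.031 for Mef2a, 0.063 for Nsdhl and 0.25 for Vcan.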

Other observations

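Some probe sets with small p had no gene symbol in the annotation used here. The 4 with the smallest p, 2 in each direction, were given by identifier. Probe set 1377852_at had signals of 300.3, 358, 292 and 406 at 4 h and 955, 812 and 585 at 48 h, a log2 difference of 1.08 (SE 0.162, limma adjusted p = 0.431). Probe set 1367805_at had signals of 1853, 1784, 1611 and 1763 at 4 h and 2622, 2760.5 and 2702 at 48 h, a log2 difference of 0.61 (SE 0.101). The late arrays lay above the early ones in both. Probe sets 1368792_at and 1394542_at lay lower at 48 h without overlap, at -0.57 (SE 0.111) and -0.88 (SE 0.186).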
